A study of Homo sapiens with 16 samples.

Results

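AP-1 is a family of transcription factors, and the transcripts of 9 of its genes were followed here in 2 cell lines of pancreatic ductal adenocarcinoma treated with the nucleoside analogue gemcitabine and the soy isoflavone genistein. The genes were FOS, FOSB, FOSL1 and FOSL2 of the FOS family, JUN, JUNB and JUND of the JUN family, and the partner genes BATF3 and JDP2. They were taken by gene symbol from the FPKM table and joined by Ensembl identifier to the count table, which holds 63677 identifiers, and each symbol matched 1 identifier. The lines were Mia-PaCa-2 and PANC-1, both established human lines. In each line the cells were a control without either drug or were exposed for 24 hours to 50 μmol/L genistein, to 40 nmol/L gemcitabine, or to both. The controls are called untreated here, but the labels do not say whether they received the solvent. The study's methods state that genistein was prepared in DMSO and that gemcitabine was not. Each of the 8 groups has 2 libraries, labelled I and II, called replicates 1 and 2 here, which gives 16 libraries in all. The study's methods call them biological replicates. The labels do not say whether they came from separate cultures, so p values here measure the spread between these libraries. The genes were chosen by their roles in AP-1 and by earlier results of these data, in which FOS and FOSB transcripts were high with gemcitabine in both lines, and the comparison of gemcitabine with control is therefore given as a description without a test.

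AP-1 proteins bind DNA as pairs held together by a leucine zipper, a coil formed by matching helices. JUN proteins can pair with each other or with a FOS protein, whereas FOS proteins need a partner, and the pairs recognise short elements such as TGANTCA and TGACGTCA. FOS, FOSB, JUN and JUNB are classical immediate early genes, which are switched on within minutes of growth factor or stress signals, often through the kinases ERK, JNK and p38, and in pancreatic carcinoma AP-1 is known for its links to RAS signalling, inflammation and migration.

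FOS (ENSG00000170345, chromosome 14, 75745529 to 75748933) and FOSB (ENSG00000125740, chromosome 19, 45971253 to 45978437) encode FOS proteins with strong transactivation domains. FOSL1 (ENSG00000175592, chromosome 11, 65659520 to 65668044) encodes FRA1 and FOSL2 (ENSG00000075426, chromosome 2, 28615315 to 28640184) encodes FRA2, which lack such a domain. JUN (ENSG00000177606, chromosome 1, 59242517 to 59249720) encodes the founding JUN protein. JUNB (ENSG00000171223, chromosome 19, 12902300 to 12904129) and JUND (ENSG00000130522, chromosome 19, 18390504 to 18392432) are single exon genes whose products activate less strongly than JUN. BATF3 (ENSG00000123685, chromosome 1, 212859759 to 212873182) and JDP2 (ENSG00000140044, chromosome 14, 75894419 to 75940814) encode small zipper proteins that pair with JUN proteins, and JDP2 is known as a repressor. Coordinates are those of GRCh37 in the GENCODE v44 annotation lifted to that build. JUNB shares 14.2% of its exon length with HOOK2 on the opposite strand and JDP2 0.415% with an antisense RNA, and the strand setting of the counting is not given in the sources used here. The exons differ in GC content, from 48.0% in BATF3 to 64.9% in JUNB and 69.9% in JUND.

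The 250 bases before the transcription start of FOS, FOSB, JUNB, JUN and FOSL2 are printed here, because the results on gemcitabine turn on these genes, from RefSeq promoters on GRCh38.p14. Such a promoter was at hand for 7 of the 9 genes, and FOSL1 and BATF3 are named only. Both strands of the promoters, taken from 250 bases before to 50 bases after the start, were searched for the element TGANTCA of FOS and JUN pairs, the cyclic AMP response element TGACGTCA and its core TGACG, the related element TGACATCA known from the JUN promoter, the TATA box TATAAA and the CArG box bound by SRF, and capitals mark the matches. TGACG lies inside TGACGTCA, so matches of these 2 motifs overlap.
FOS, chr14:75278578-75278827, plus strand: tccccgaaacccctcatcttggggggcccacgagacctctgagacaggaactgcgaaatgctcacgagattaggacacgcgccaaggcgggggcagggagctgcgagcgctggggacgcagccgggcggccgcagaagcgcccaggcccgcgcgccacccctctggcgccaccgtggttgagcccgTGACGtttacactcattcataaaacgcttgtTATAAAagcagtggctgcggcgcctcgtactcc
FOSB, chr19:45467746-45467995, plus strand: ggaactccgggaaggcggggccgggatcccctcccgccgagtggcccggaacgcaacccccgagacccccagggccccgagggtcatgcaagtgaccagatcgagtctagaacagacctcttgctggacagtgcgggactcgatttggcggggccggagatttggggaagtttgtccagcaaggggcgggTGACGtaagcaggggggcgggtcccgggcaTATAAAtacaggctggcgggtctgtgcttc
JUNB, chr19:12791236-12791485, plus strand: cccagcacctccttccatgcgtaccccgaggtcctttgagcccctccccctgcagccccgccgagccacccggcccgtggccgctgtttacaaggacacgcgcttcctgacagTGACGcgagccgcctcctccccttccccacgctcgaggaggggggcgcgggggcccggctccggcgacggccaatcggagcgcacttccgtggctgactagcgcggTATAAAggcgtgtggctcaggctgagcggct
JUN, chr1:58784048-58784297, minus strand: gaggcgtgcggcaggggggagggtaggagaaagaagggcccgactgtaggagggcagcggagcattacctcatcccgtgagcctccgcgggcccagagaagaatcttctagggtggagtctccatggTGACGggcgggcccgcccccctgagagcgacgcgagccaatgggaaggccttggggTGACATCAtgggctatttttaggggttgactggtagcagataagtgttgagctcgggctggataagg
FOSL2, chr2:28392608-28392857, plus strand: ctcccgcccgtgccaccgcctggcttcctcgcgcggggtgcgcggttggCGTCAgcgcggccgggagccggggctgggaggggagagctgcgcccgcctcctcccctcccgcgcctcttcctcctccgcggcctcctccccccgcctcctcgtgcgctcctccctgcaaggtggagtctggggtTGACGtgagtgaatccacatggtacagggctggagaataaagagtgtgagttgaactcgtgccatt
TGACG, which CREB and ATF proteins recognise, was found in 7 of the 9 RefSeq promoters of these 7 genes (1 of the 3 promoters of JDP2 and the single promoter of each other gene), against 24.55% of all 35116 promoters. It began 64 bases before the start in FOS, 60 in FOSB, 137 in JUNB and 123 in JUN. TATAAA was found in FOS, FOSB and JUNB, where it began 33, 30 and 31 bases before the start, and in 11.53% of all promoters. JUN held TGACATCA 67 bases before the start (2.614% of all promoters), FOSL2 held TGACTCA just after its start (TGANTCA, 7.709%), and JUND held TGACGTCA 200 bases before its start (1.848%). No CArG box was matched in these windows, and 1.293% of all promoters held one. Sites further than 250 bases before the start were not searched, so the genes may hold such boxes there. These are matches of letters and not measured binding sites.

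Between 12943482 and 31991860 reads were counted on genes in each library (median 16059396.5), and the 9 genes had between 8 and 4072 counts per library. All 9 passed the filter on low counts in each model. The epithelial keratin genes KRT8, KRT18 and KRT19 and the mesenchymal gene VIM were at 56.5 FPKM or more in all libraries, while EPCAM, an epithelial surface gene, was at 0 in all Mia-PaCa-2 libraries and at 7.71 to 12.8 FPKM in PANC-1. Markers of acinar, endocrine, leukocyte and endothelial cells had at most 2 counts in any library. Replicates differed by more than sampling noise in all groups. Chi-square per degree of freedom was highest in the PANC-1 controls and in PANC-1 with both drugs (32.03 and 19.74, against 2.699 to 10.3 in the other groups). This measure grows with the number of reads and does not rank the groups by relative spread. The PANC-1 controls had 21889823 and 31991860 reads, against 14314926 and 16390908 in PANC-1 with both drugs. The relation of counts to GC content was not the same in all libraries. Relative to the mean of their line, log2 counts changed per 10 percentage points of GC by -0.23 and -0.14 in the Mia-PaCa-2 controls and by 0.29 and -0.07 in the PANC-1 controls. With both drugs the slopes were 0.05 and 0.29 in Mia-PaCa-2 and -0.16 and 0.23 in PANC-1. In Mia-PaCa-2 they were 0.14 and 0.05 with gemcitabine and -0.002 and -0.16 with genistein. The slopes in that line were thus above 0 with gemcitabine and below 0 without it. Whether correcting for GC also removes an effect of the drug was not tested. Values corrected for the trend with GC content are given beside results whose call the correction changed or that it moved most.

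FOSL1 was the most abundant of the 9 transcripts in both untreated lines, and FOS and FOSB were among the 3 least abundant. Levels are given in FPKM, which are scaled to transcript length and so can be compared between genes. In the Mia-PaCa-2 controls FOSL1 had 39.5 and 38.6 FPKM, followed by JUND with 21.3 and 23.5 and by JUN with 13.6 and 13.7. FOSL2 (12.0 and 10.9 FPKM) and JUNB (7.22 and 11.0) had overlapping ranges. The remaining order was JDP2 (3.44 and 3.01), FOS (2.76 and 1.64), BATF3 (1.40 and 1.61) and FOSB (0.20 and 0.22), with no overlap between neighbours. In the PANC-1 controls FOSL1 had 114.3 and 95.3 FPKM, far above all others. JUN (14.1 and 12.2) and JUND (12.3 and 10.2) overlapped, as did each neighbouring pair in the series JDP2, JUNB, FOSL2 and BATF3, whose means ran from 8.37 down to 6.55 FPKM. FOS (0.50 and 0.45) and FOSB (0.56 and 0.29) came last and overlapped.

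**Figure D1:**
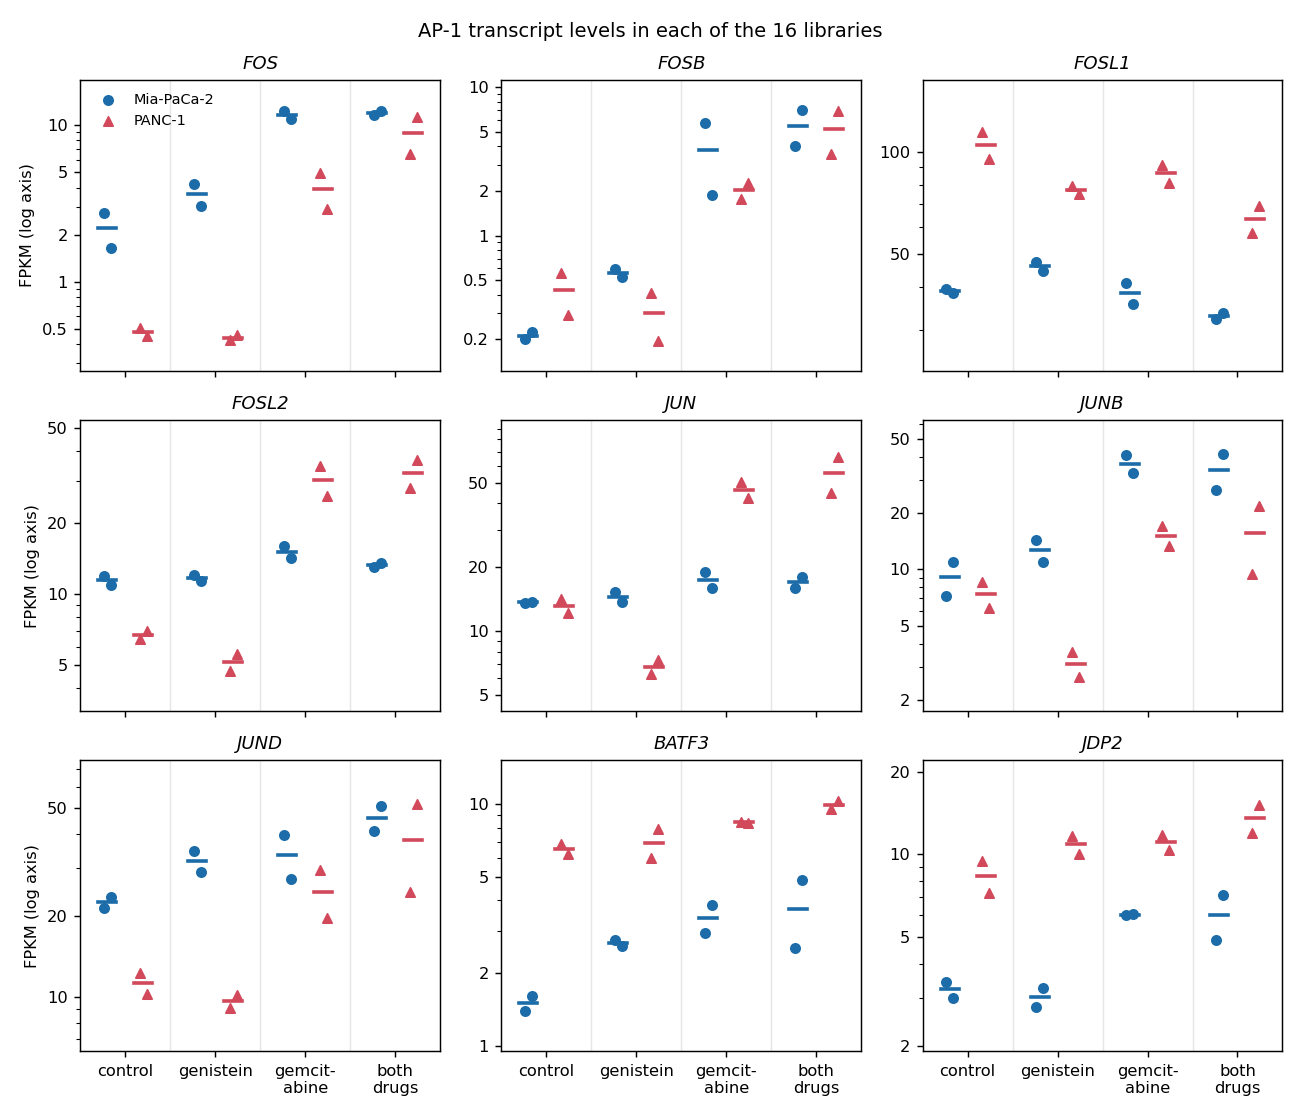
FPKM of each AP-1 gene on a log axis, by treatment, with 1 point per library, circles for Mia-PaCa-2, triangles for PANC-1 and a bar at the mean of the 2 libraries. FOS, FOSB and JUNB are higher in both lines wherever gemcitabine was given, with JUNB in PANC-1 at 9.48 to 21.7 FPKM against 2.66 to 8.57 without it. FOSL2 and JUN are high there in PANC-1, with JUN at 42.4 to 65.9 FPKM against 6.29 to 14.1 without gemcitabine.

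The untreated lines differed in 6 of the 9 genes, against a background in which 52.3% of all tested genes were called. Here and below, calls needed an adjusted p no higher than 0.05 (limma-voom, Benjamini-Hochberg over all genes tested), a log2 fold change of 0.4 or more in size, and expression above 1 FPKM on average in the treated libraries, or in one of the lines where lines are compared. By limma-voom, BATF3 was higher in PANC-1 by 2.15 on the log2 scale (standard error 0.31, adjusted p = 3.75e-05), JDP2 by 1.40 (adjusted p = 1.18e-04) and FOSL1 by 1.27 (adjusted p = 2.78e-06). Lower in PANC-1 were FOS, at -2.03 (standard error 0.32, adjusted p = 1.05e-04), JUND, at -1.23 (adjusted p = 2.95e-04), and FOSL2, at -0.82 (adjusted p = 9.04e-06, limma-voom in each case). The share of calls was close to that of all genes. JUN (-0.10) and JUNB (-0.34) did not pass, but after the correction for GC content they had log2 fold changes of -0.48 and -1.27 (adjusted p = 0.00395 and 1.21e-05 from limma-voom) and were called, while FOSL1 was at 0.69 and JUND at -2.52. FOSB, at 0.52 and after GC correction at 0.076, did not pass (adjusted p = 0.341 and 0.850 from limma-voom).

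In Mia-PaCa-2, gemcitabine went with high FOS, FOSB and JUNB. FOS had 12.4 and 10.9 FPKM with gemcitabine against 2.76 and 1.64 in the controls, and FOSB had 5.71 and 1.87 against 0.20 and 0.22. JUNB had 40.6 and 32.8 FPKM against 7.22 and 11.0. The gemcitabine libraries lay above the control libraries without overlap for these 3 genes. Their log2 fold changes were 2.24 for FOS (standard error 0.22), 3.45 for FOSB (standard error 0.36) and 1.93 for JUNB (standard error 0.24), and JUNB was at 1.40 after GC correction. The control values of FOSB rest on 8 and 13 counts, and its 2 gemcitabine libraries, which differ in FPKM, had 138 and 123 counts. The partner genes were also higher. BATF3 had 2.92 and 3.85 FPKM against 1.40 and 1.61, and a log2 fold change of 1.30, with 12 counts in each control library. JDP2 had 6.03 and 6.05 FPKM against 3.44 and 3.01, and a log2 fold change of 0.87. These 5 genes were past the call thresholds, as were 29.6% of all genes in this comparison, and nothing is read from the count since the genes were chosen with results of this comparison known. FOSL1 (-0.23), FOSL2 (0.24), JUN (0.23) and JUND (0.26) were within 0.4, and after GC correction FOSL1 was at -0.56 and JUND at -0.45, past the thresholds. BATF3 was not past the thresholds without gemcitabine replicate 2 (1.26) or control replicate 1 (1.12), nor JDP2 without control replicate 2 (0.63).

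In PANC-1, gemcitabine went with high FOS and FOSB as well, but the other genes past the call thresholds there were FOSL2, JUN and JUND. FOS had 4.96 and 2.90 FPKM with gemcitabine against 0.50 and 0.45 in the controls, and FOSB had 1.77 and 2.25 against 0.56 and 0.29. The control values rest on 18 and 21 counts for FOS and on 23 and 29 for FOSB. FOSL2 had 34.7 and 25.9 FPKM against 6.49 and 6.98, and JUN had 50.3 and 42.4 against 14.1 and 12.2. The gemcitabine and control libraries did not overlap for these genes either. Log2 fold changes were 2.81 for FOS (standard error 0.27), 2.35 for FOSB (standard error 0.31), 1.94 for FOSL2 (standard error 0.11) and 1.71 for JUN (standard error 0.21). JUND had 29.5 and 19.6 FPKM against 12.3 and 10.2, with a log2 fold change of 0.99 (1.10 after GC correction). JUNB, at 17.0 and 13.2 FPKM against 8.57 and 6.20, had a log2 fold change of 0.93 with a standard error of 0.37 and was not past the thresholds, but was past them at 1.04 after GC correction. The 5 genes past them are set against 7.52% of all genes. Without gemcitabine replicate 1 or 2 only 2 or 3 of the 9 genes were past them, as were 66 or 64 of all genes in place of 1272, JUND was not past them without any one of the 4 libraries compared (0.87 to 1.12), FOSB without either gemcitabine library (2.20 and 2.50) and JUN without gemcitabine replicate 1 (1.59). FOSL1 (-0.24), BATF3 (0.25) and JDP2 (0.17) were within 0.4.

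The comparison of both drugs with genistein alone also measured the effect of gemcitabine, on libraries that are not in the comparison above, and was tested. The spread of each gene was still estimated from all 8 libraries of the line. Which comparisons were in view when the genes were chosen is not fully known. The p values of all 9 genes, those of FOS and FOSB above all, may therefore depend on that choice. So may the counts of calls, also for the difference between the lines. In Mia-PaCa-2, FOS had 11.6 and 12.3 FPKM with both drugs against 4.20 and 3.06 with genistein, FOSB had 3.99 and 7.04 against 0.59 and 0.52, and JUNB had 26.5 and 41.1 against 14.4 and 11.0. All 3 rose without overlap of the libraries. The log2 fold change was 1.42 for FOS (standard error 0.16, adjusted p = 3.38e-05), 2.93 for FOSB (standard error 0.28, adjusted p = 8.41e-06) and 1.32 for JUNB (standard error 0.22, adjusted p = 5.84e-04, limma-voom in each case). JDP2, at 4.88 and 7.14 FPKM against 2.78 and 3.26, rose by 0.90 (adjusted p = 0.00252 from limma-voom). FOSL1 fell, from 47.6 and 44.6 FPKM to 32.3 and 33.7, by 0.71 on the log2 scale (standard error 0.10, adjusted p = 2.15e-04 from limma-voom). These are 5 of the 9 genes, against 31.5% of all genes called, and the 5 calls stood without any one of the 4 libraries. FOSL2 (0.08), JUN (0.13), JUND (0.12) and BATF3 (0.34) did not pass, and after GC correction JUND was at -0.63 (adjusted p = 7.24e-05 from limma-voom), JUNB at 0.74 and FOSL1 at -1.06. JUND was at -0.057 and BATF3 at -0.041 without replicate 2 of both drugs. The JUND libraries overlapped in CPM (66.8 and 85.2 against 69.0 and 60.7) but not in FPKM (41.2 and 51.2 against 34.7 and 29.1), and on log2(FPKM + 1) values JUND was at 0.52 (adjusted p = 0.0848 from limma-trend).

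In PANC-1, FOS had 6.55 and 11.4 FPKM with both drugs against 0.42 and 0.45 with genistein, a 13.6-fold rise, and FOSB had 3.53 and 6.90 against 0.41 and 0.19, an 8.19-fold rise. The genistein values, all under 1 FPKM, rest on 13 and 11 counts for FOS and on 14 and 10 for FOSB. JUN had 45.0 and 65.9 FPKM against 6.29 and 7.31, a 7.24-fold rise, and FOSL2 had 27.9 and 36.6 against 4.74 and 5.60, a 3.96-fold rise. No library with both drugs overlapped one with genistein for these 4 genes. Their log2 fold changes were 3.76 for FOS (standard error 0.30, adjusted p = 0.00140), 3.03 for FOSB (standard error 0.38, adjusted p = 0.00514), 2.86 for JUN (standard error 0.25, adjusted p = 0.00166) and 1.99 for FOSL2 (standard error 0.12, adjusted p = 9.56e-04, limma-voom in each case). FOS ranked 8 by size of rise among the 16909 genes tested. Nothing is read from this rank, since FOS was known to be high with gemcitabine when it was chosen. JUNB had 9.48 and 21.7 FPKM against 3.60 and 2.66, a change of 2.07 (adjusted p = 0.0313), and JUND had 24.5 and 51.8 against 9.14 and 10.2, a change of 1.53 (adjusted p = 0.0128, limma-voom in both cases). The replicates with both drugs stood apart most for these 2 GC-rich genes, and replicate 2, the higher, had the steeper GC slope. After GC correction JUND was at 0.71 (adjusted p = 0.0102) and JUNB at 1.53 (adjusted p = 8.19e-04, limma-voom in both cases). JUNB lost its call with the replicate number as a block (adjusted p = 0.0658), with only the libraries compared (adjusted p = 0.0528) and without replicate 2 of both drugs (1.45, adjusted p = 0.0551 from limma-voom).

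These 6 called genes of 9 in PANC-1 stand against 8.18% of all genes. The count rested on both genistein libraries, as did that of all genes, which fell from 1383 to 27 without genistein replicate 1 and to 29 without replicate 2. Without genistein replicate 1 the calls of FOSB (3.31, adjusted p = 0.0864), JUN (2.78, adjusted p = 0.0535), JUNB (2.30, adjusted p = 0.169) and JUND (1.48, adjusted p = 0.144, limma-voom in each case) were lost, which left FOS and FOSL2. Without genistein replicate 2 those of FOSB (2.78, adjusted p = 0.0978), JUNB (1.86, adjusted p = 0.228) and JUND (1.62, adjusted p = 0.131, limma-voom in each case) were lost. The other members did not pass. FOSL1 had 57.9 and 69.3 FPKM against 79.3 and 75.2, lower in both libraries, with a log2 fold change of -0.38 (adjusted p = 0.146), which after GC correction was -0.62 (adjusted p = 0.00113 from limma-voom). BATF3 (0.40, adjusted p = 0.251) and JDP2 (0.24, adjusted p = 0.479, limma-voom in both cases) did not pass, and JDP2 was at -0.0018 without replicate 2 of both drugs.

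**Figure D2:**
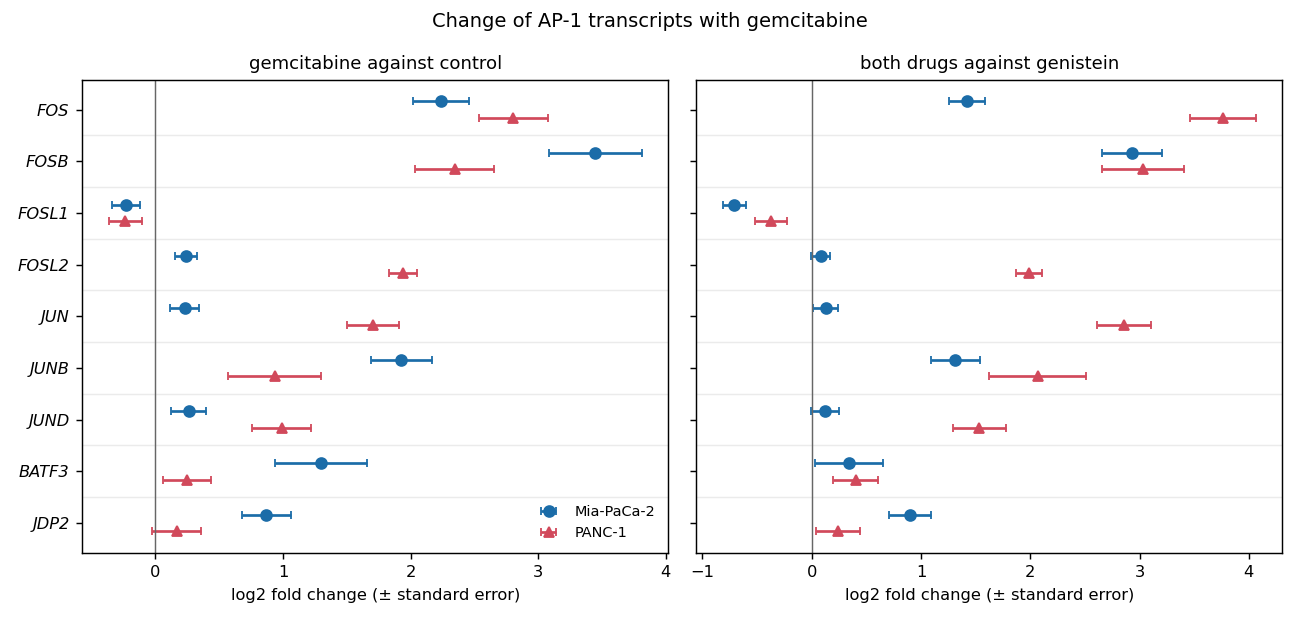
Log2 fold changes with standard errors for each AP-1 gene, circles for Mia-PaCa-2 and triangles for PANC-1, for gemcitabine against control on the left (a description) and both drugs against genistein on the right. FOS and FOSB are to the right of 0 in both lines and both panels, and FOSL2 and JUN are near 0 in Mia-PaCa-2 but at 1.71 to 2.86 in PANC-1.

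**Figure D3:**
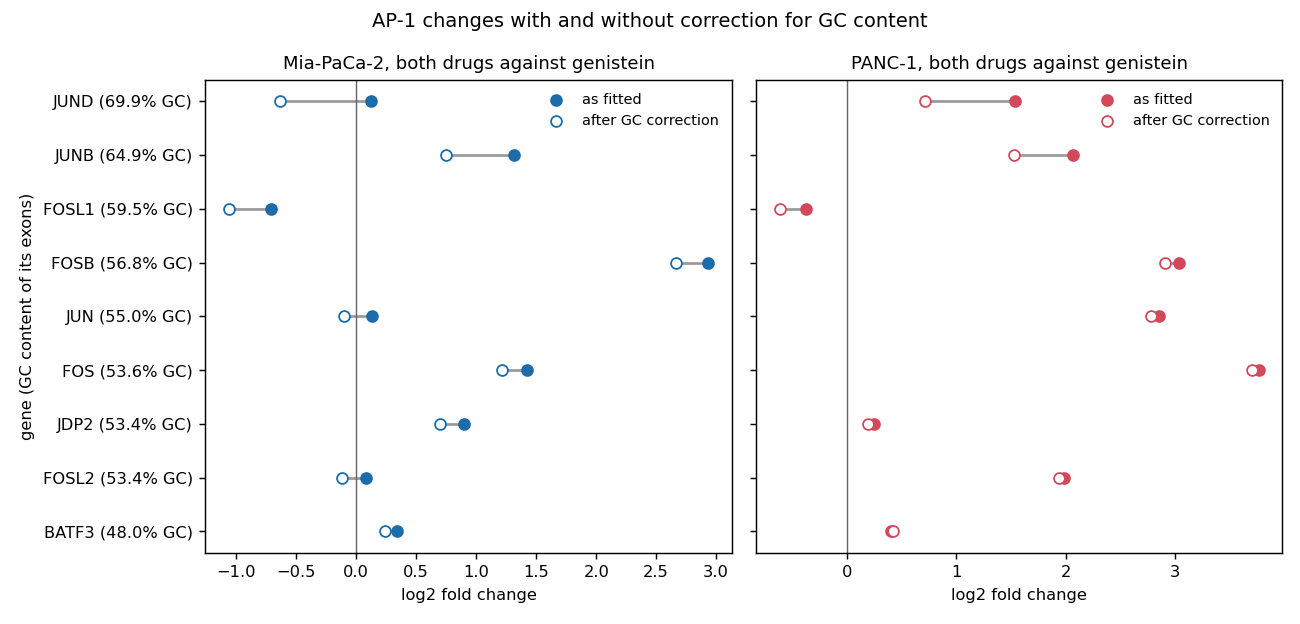
Log2 fold changes of both drugs against genistein as fitted (filled) and after correction for GC content (open), with the genes ordered by the GC content of their exons. The shift is longest for JUND, which goes from 0.12 to -0.63 in Mia-PaCa-2 and from 1.53 to 0.71 in PANC-1, and short for BATF3, FOSL2 and FOS.

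Whether the effect of gemcitabine added to genistein differed between the lines was tested directly in a model of all 16 libraries, where 4 of the 9 genes passed at an adjusted p of at most 0.05, against 8.80% of all genes. All 4 rose more in PANC-1 on the log2 scale. The difference in log2 fold change was 2.69 for JUN (standard error 0.30, adjusted p = 1.73e-04), 2.32 for FOS (standard error 0.37, adjusted p = 0.00221), 1.87 for FOSL2 (standard error 0.14, adjusted p = 1.63e-05) and 1.38 for JUND (standard error 0.31, adjusted p = 0.0153, limma-voom in each case). FOS was at 0.42 and 0.45 FPKM in PANC-1 and at 4.20 and 3.06 in Mia-PaCa-2 with genistein alone, and at 6.55 and 11.4 against 11.6 and 12.3 FPKM with both drugs. The PANC-1 values with genistein alone rest on 13 and 11 counts. For gemcitabine against control, a description, FOS changed by 2.81 in PANC-1 (standard error 0.27) and by 2.24 in Mia-PaCa-2 (standard error 0.22). On log2(FPKM + 1) values FOS (1.25, adjusted p = 0.0663) and JUND (1.27, adjusted p = 0.104, limma-trend in both cases) did not pass. JUND also missed with only the 8 libraries compared (adjusted p = 0.0654) and without either PANC-1 genistein library or replicate 1 of Mia-PaCa-2 genistein or of Mia-PaCa-2 both drugs (1.16 to 1.45, adjusted p from 0.0523 to 0.0822, limma-voom in each case). For FOSB the difference was 0.07 (2 standard errors either side, -0.94 to 1.07), for JUNB 0.73 (-0.46 to 1.91) and for JDP2 -0.68 (-1.30 to -0.07), and none of these passed. After GC correction JUNB (0.77, adjusted p = 0.0480) and FOSL1 (0.45, adjusted p = 0.00878, limma-voom in both cases) passed as well.

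The make-up of the FOS family moved with these levels. FOSL1 made up 72.6% and 75.1% of the summed FOS family FPKM in the Mia-PaCa-2 controls and 73.9% and 74.9% with genistein, but 50.6% to 57.2% in the 4 libraries with gemcitabine. FOS made up 3.20% to 6.52% without and 16.4% to 19.1% with gemcitabine. In PANC-1 FOSL1 made up 92.3% to 93.8% in the libraries without gemcitabine and 55.8% to 72.3% in those with it, and FOSL2 went from between 5.33% and 6.87% to between 23.1% and 29.5%. Libraries with and without gemcitabine did not overlap in any of these shares. In the JUN family JUNB made up 17.1% to 22.8% of the summed FPKM without and 31.7% to 43.1% with gemcitabine in Mia-PaCa-2. In PANC-1 it was JUN, with 33.1% to 42.5% without and 47.3% to 57.0% with the drug. These shares use the same FPKM values as above and were not tested.

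**Figure D4:**
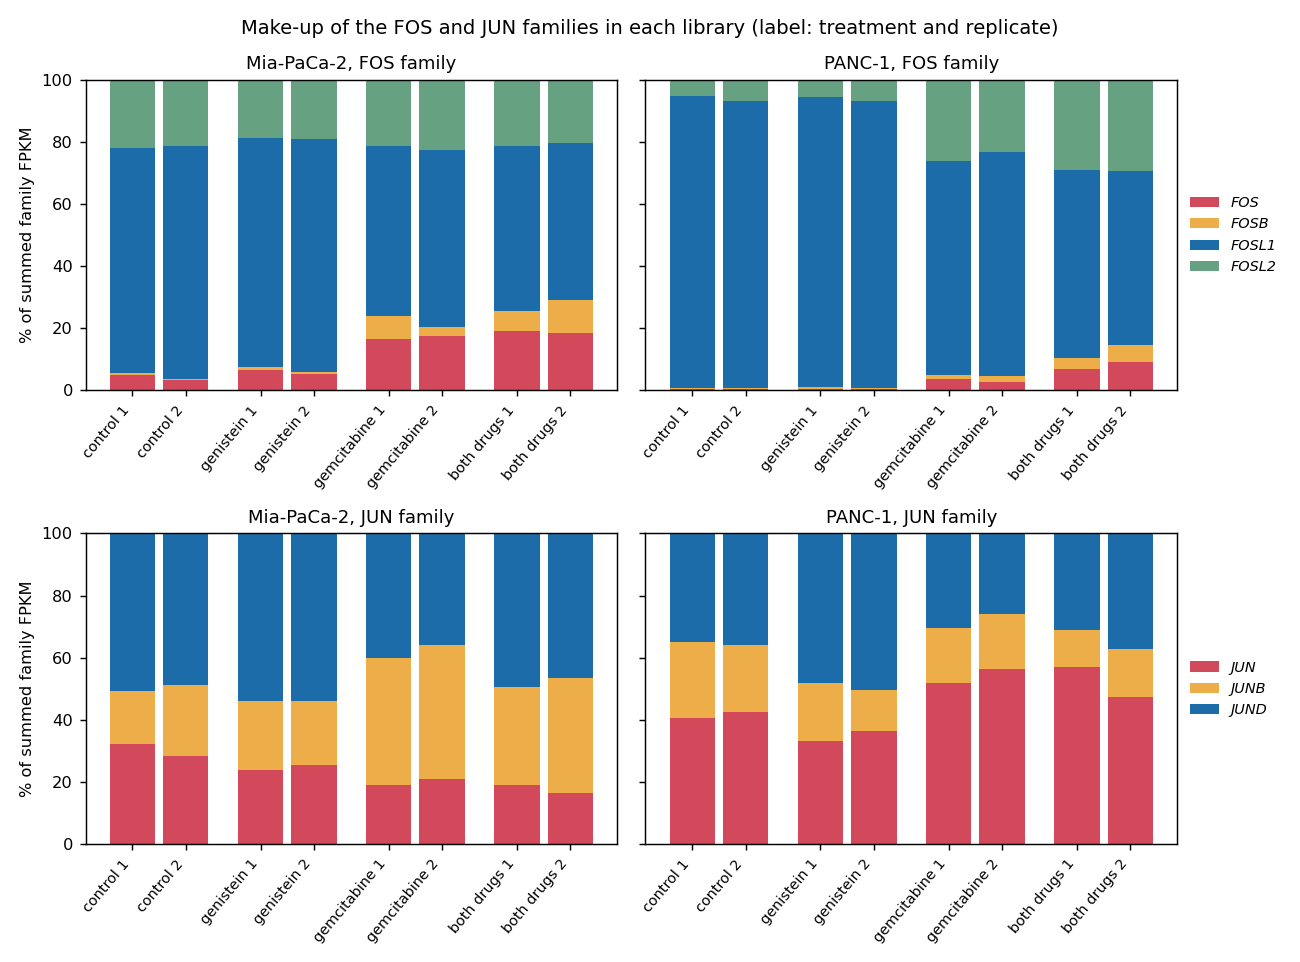
Share of each gene in the summed FPKM of the FOS family (top) and of the JUN family (bottom), 1 bar per library, from 0 to 100%. The FOSL1 share is smaller in the gemcitabine and both-drug bars of both lines, where FOS and FOSB take more in Mia-PaCa-2 and FOSL2 takes 23.1% to 29.5% in PANC-1.

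With genistein alone FOS and JUND were called in Mia-PaCa-2 and none of the 9 genes in PANC-1. The control libraries are those against which FOS and FOSB were known to be high with gemcitabine. The p values of these 2 genes here are thus not independent of their choice, and those of the other genes may also depend on it. In Mia-PaCa-2, FOS had 4.20 and 3.06 FPKM with genistein against 2.76 and 1.64 in the controls, above them in both libraries. Scaled to each library's total as CPM, its counts were 9.08 and 6.83 against 2.67 and 3.50, and limma-voom on the counts gave a log2 fold change of 1.37 with a standard error of 0.23 and an adjusted p = 0.00400. On log2(FPKM + 1) values FOS did not pass. JUND had 34.7 and 29.1 FPKM against 21.3 and 23.5 and changed by 0.48 (adjusted p = 0.0405 from limma-voom). They are 2 of the 9 genes, against 8.31% of all genes called. FOS lost its call without control replicate 1 (1.17, adjusted p = 0.0812 from limma-voom), where the calls over all genes went from 1335 to 176. JUND lost its call without genistein replicate 1, control replicate 1 or control replicate 2 (0.40, 0.41 and 0.55, adjusted p from 0.126 to 0.269, limma-voom in each case) and with the replicate block (adjusted p = 0.0694). FOSL1, at 47.6 and 44.6 FPKM against 39.5 and 38.6, changed by 0.36 (adjusted p = 0.0414), under the fold threshold, and FOSB (1.12, adjusted p = 0.103), BATF3 (0.87, adjusted p = 0.154) and JUNB (0.50, adjusted p = 0.231, limma-voom in each case) did not pass. After GC correction JUNB was called at 0.54 (adjusted p = 0.0186 from limma-voom).

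In PANC-1, JUN had 6.29 and 7.31 FPKM with genistein against 14.1 and 12.2 in the controls, and JUNB had 3.60 and 2.66 against 8.57 and 6.20. Both genes were lower in both genistein libraries, with log2 fold changes of -0.95 for JUN (adjusted p = 0.139) and -1.23 for JUNB (adjusted p = 0.203, limma-voom in both cases), which did not pass. Of the 9 genes limma-voom called 0, edgeR 0 and DESeq2 2, while limma-voom called 0.0591% of all genes. An unadjusted p under 0.05 from limma-voom was found for 2 of the 9 genes and for 3252 of all 16909 genes. After GC correction JUN was at -0.95 (adjusted p = 0.0137) and JUND at 0.97 (adjusted p = 0.0126, limma-voom in both cases), and both were called, whereas JUND was at -0.03 without the correction and FOSL1 went from -0.24 to 0.01. JUNB went from -1.23 to -0.58 (adjusted p = 0.0902 from limma-voom). Before the correction JUND had 18.5 and 20.6 CPM with genistein against 20.9 and 18.9 in the controls, ranges that overlap. Its rise is thus seen only after the correction, and whether it is an effect of the drug was not tested. The PANC-1 control pair, which had the highest chi-square per degree of freedom, a measure that grows with the number of reads, enters this comparison. For FOS the log2 fold change was 0.34 (2 standard errors either side, -0.38 to 1.06). A difference between the lines in the response to genistein was called for 0 of the 9 genes by limma-voom or edgeR and for 2 by DESeq2. Of all genes limma-voom called 0.0336%. By limma-voom 4 of the 9 genes had an unadjusted p under 0.05, as did 2056 of all 17863 genes. The PANC-1 minus Mia-PaCa-2 difference was -1.77 for JUNB (-3.02 to -0.52), -1.09 for JUN (-1.71 to -0.47) and -0.65 for FOSL1 (-1.04 to -0.26, and -0.34 after GC correction), and after GC correction JUNB (-1.18, adjusted p = 0.0394) and JUN (-0.98, adjusted p = 0.0183, limma-voom in both cases) passed. FOSL1 passed without PANC-1 control replicate 2 (-0.87, adjusted p = 0.0490 from limma-voom).

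With genistein added to gemcitabine, limma-voom called FOS in Mia-PaCa-2 and none of the 9 genes in PANC-1. This comparison uses the gemcitabine libraries in which FOS and FOSB were known to be high. The p values of these 2 genes are thus not independent of their choice, and those of the other genes may also depend on it. In Mia-PaCa-2, FOS had 11.6 and 12.3 FPKM with both drugs against 12.4 and 10.9 with gemcitabine, ranges that overlap. In CPM it had 22.4 and 22.1 against 16.7 and 14.3. The log2 fold change was 0.56 (limma-voom on the counts, standard error 0.15, adjusted p = 0.0391), the only call among the 9 genes, against 5.88% of all genes. That call was lost with edgeR (adjusted p = 0.0509), with DESeq2 (adjusted p = 0.0881), with the replicate block (adjusted p = 0.0759) and without gemcitabine replicate 1 or 2 or replicate 2 of both drugs (0.66, 0.45 and 0.55, adjusted p from 0.0782 to 0.264, limma-voom). After GC correction FOSB, at 0.53, was called too (adjusted p = 0.0298 from limma-voom). Without replicate 1 of both drugs FOSB (0.70, adjusted p = 0.0229) and JUND (0.54, adjusted p = 0.00529, limma-voom in both cases) were called as well. In PANC-1, FOS had 6.55 and 11.4 FPKM against 4.96 and 2.90, above both gemcitabine libraries, with a log2 fold change of 1.30 (2 standard errors either side, 0.93 to 1.67, adjusted p = 0.108 from limma-voom). FOSL1 had 57.9 and 69.3 FPKM against 91.6 and 81.0, lower in both, with -0.38 (adjusted p = 0.316 from limma-voom). Of the 9 genes limma-voom called 0, edgeR 0 and DESeq2 1, while limma-voom called 0.0177% of all genes. An unadjusted p under 0.05 from limma-voom was found for 4 of the 9 genes and for 2262 of all 16909 genes. After GC correction FOS (1.20, adjusted p = 0.00314), FOSL1 (-0.44, adjusted p = 0.0154) and JUND (0.58, adjusted p = 0.0379, limma-voom in each case) were called.

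**Figure D5:**
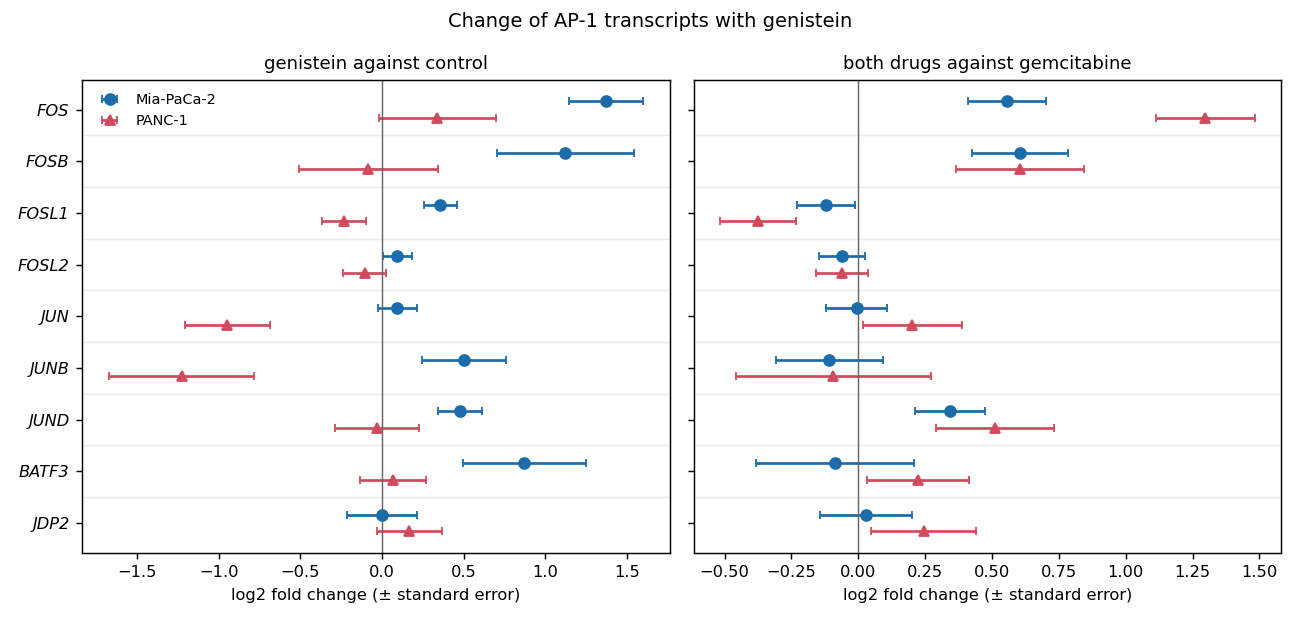
Log2 fold changes with standard errors for genistein against control on the left and both drugs against gemcitabine on the right, circles for Mia-PaCa-2 and triangles for PANC-1. FOS is at 1.37 in Mia-PaCa-2 on the left, JUN and JUNB are at -0.95 and -1.23 in PANC-1 on the left, and on the right FOS is at 1.30 in PANC-1, which did not pass, and at 0.56 in Mia-PaCa-2, which did.

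The gemcitabine by genistein interaction, which asks whether the change with both drugs departs from the sum of the single changes on the log2 scale, was called for 0 of the 9 genes in either line by limma-voom, edgeR or DESeq2. In each line 2 of the genes had an unadjusted p under 0.05 from limma-voom. Over all genes 1346 of 16064 did in Mia-PaCa-2 and 832 of 16909 in PANC-1. By adjusted p 0.0249% of all genes passed in Mia-PaCa-2 and 0 genes in PANC-1. For FOS the interaction was -0.82 in Mia-PaCa-2 (2 standard errors either side, -1.36 to -0.27, adjusted p = 0.445) and 0.96 in PANC-1 (0.15 to 1.77, adjusted p = 0.734, limma-voom in both cases). For JUN in PANC-1 it was 1.15 (0.51 to 1.79) and for FOSL1 in Mia-PaCa-2 -0.48 (-0.78 to -0.18).

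Other genes of the pathway came from lists that were written with earlier results of these data known. Of 13 other AP-1 dimer partners, 11 were tested in Mia-PaCa-2, and with gemcitabine added to genistein 5 rose and 2 fell, with a median log2 fold change of 0.34 against -0.01 for all genes. Of all genes 16.6% rose and 14.9% fell in this comparison. The stress-induced factor gene ATF3 rose most, by 2.32 (adjusted p = 1.38e-05 from limma-voom), and ATF4 (-0.59) and ATF2 (-0.59) fell. In PANC-1, 4 of 10 rose and 0 fell (10 tested, by the same limma-voom test), led by ATF3 with 2.88 (adjusted p = 4.68e-04) and the small MAF gene MAFF with 2.46 (adjusted p = 9.56e-04), with a median of 0.10 against 0.00 for all genes, of which 3.87% rose and 4.31% fell. MAFF was the only partner gene whose response was called different between the lines, 1.60 more in PANC-1, where 3.15% of all genes had a higher and 5.65% a lower response (adjusted p = 9.83e-04 from limma-voom). With genistein alone 4.18% of all genes rose and 4.13% fell in Mia-PaCa-2, and 0.0591% and 0% in PANC-1. Genistein alone raised MAFF by 0.69 in Mia-PaCa-2 (1 of 11 genes) and ATF3 by 1.52 and ATF4 by 0.85 in PANC-1 (2 of 10). Added to gemcitabine, genistein raised 4.05% and lowered 1.83% of all genes in Mia-PaCa-2, and 0.0118% and 0.00591% in PANC-1. It raised 4 of 11 partner genes in Mia-PaCa-2, among them ATF3 at 1.16, and 0 of 10 in PANC-1.

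Of 27 kinases and factors upstream of AP-1, 26 were tested in each line. With gemcitabine added to genistein 2 rose and 8 fell in Mia-PaCa-2, against 16.6% and 14.9% of all genes, with a median of -0.17 against -0.01 for all genes. The kinase genes RPS6KA5 (1.06) and RPS6KA2 (0.89) rose, and ELK4 (-0.90), a partner of SRF, and the kinase gene GSK3B (-0.77) had the largest falls. In PANC-1, 0 rose and 4 fell, against 3.87% and 4.31% of all genes, with a median of -0.19 against 0.00, and the largest falls were those of the p38 activator gene MAP2K6 (-1.23) and GSK3B (-0.68). The shares of all genes in the genistein and line comparisons are those given for the partner genes. Between the lines, the response of RPS6KA2 (-1.35) and of MAP2K1 (-0.50) was lower in PANC-1, and the other 24 did not pass. Genistein alone raised RPS6KA2 by 0.89 in Mia-PaCa-2 and 0 of 26 in PANC-1, and added to gemcitabine it raised RPS6KA2 by 1.02 and lowered MKL2 (-0.48) in Mia-PaCa-2, with 0 of 26 called in PANC-1.

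Of 22 genes known as AP-1 targets, 16 were tested in Mia-PaCa-2 and 17 in PANC-1, and they moved in both directions. With gemcitabine added to genistein 5 rose and 4 fell in Mia-PaCa-2 (16.6% and 14.9% of all genes), with a median of -0.12 against -0.01 for all genes, and 2 rose and 4 fell in PANC-1 (3.87% and 4.31% of all genes), with a median of 0.05 against 0.00. The fibronectin gene FN1 rose by 3.63 and HBEGF, a ligand of the EGF receptor, by 2.11 in Mia-PaCa-2, where CD44 (-1.14) and the cyclin gene CCND1 (-0.86) fell. In PANC-1 HBEGF rose by 1.96 and the cytokine gene IL11 by 1.25, and HMOX1 (-0.81) and VIM (-0.80) fell. The response differed between the lines for 7 of 17, against 8.80% of all genes, from -2.86 for FN1 and -1.57 for HMOX1 to 2.36 for IL8 and 0.70 for CCND1. Genistein alone raised HBEGF by 0.91 and TIMP1 by 0.52 in Mia-PaCa-2 and changed 0 of 17 in PANC-1. Added to gemcitabine it raised 3 and lowered 3 of 16 in Mia-PaCa-2, with FN1 at 1.11, HBEGF at 0.92, IL8 at -0.83 and PLAU at -0.60, and changed 0 of 17 in PANC-1. In these 3 lists limma-voom called 0 genes for an interaction of the drugs, against 0.00623% of all genes above and 0.0187% below 0 in Mia-PaCa-2 and 0 genes in PANC-1, and 0 for a line difference in the genistein response, against 0.00560% and 0.0280%.

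Between the untreated lines, where 27.9% of all genes were higher and 24.3% lower in PANC-1, 7 of 11 partner genes differed, from MAFK (2.22 higher in PANC-1) and ATF3 (1.52) to MAFF (-0.93). Of the upstream genes 5 were higher in PANC-1 and 11 lower, with MKL2 at 2.41 and MAP2K6 at 2.16 against MAP2K2 at -1.14 and MAPK9 at -0.95. Of the target genes 4 were higher and 4 lower, with HMOX1 at 2.15 and TGFB1 at 1.86 against IL8 at -6.63 and TIMP1 at -2.54. For gemcitabine against control, given as a description, 15.0% of all genes were higher and 14.6% lower in Mia-PaCa-2, and 4.49% and 3.03% in PANC-1. Partner genes past the thresholds were 4 higher and 2 lower in Mia-PaCa-2, with MAFA at 2.33, ATF3 at 1.98, ATF4 at -0.83 and ATF2 at -0.44, and 2 higher in PANC-1, ATF3 at 4.03 and MAFF at 2.22. Upstream genes were 3 higher and 3 lower in Mia-PaCa-2 (RPS6KA5 at 0.78, RPS6KA2 at 0.75, ELK4 at -0.69 and ITCH at -0.62) and 1 higher and 1 lower in PANC-1 (RPS6KA5 at 1.05 and MAP2K6 at -1.12). Target genes were 7 higher and 4 lower in Mia-PaCa-2 (FN1 at 2.83, HBEGF at 2.11, CD44 at -1.03 and VEGFA at -0.75) and 3 higher and 2 lower in PANC-1 (IL8 at 1.72, HBEGF at 1.43, VIM at -0.60 and CD44 at -0.44).

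The genes whose pattern was most like that of 3 of the AP-1 genes were sought over the 8 group means of log2 CPM after each line's mean was subtracted, among 13473 genes. Nearest to FOS were ZNF324B, ZNF530, CCRN4L, GFOD1 and SLC12A4, with Pearson coefficients of 0.995, 0.993, 0.992, 0.988 and 0.988. For JUN they were PID1, ZNF577, MAX, BRPF1 and ZNF273, with 0.993 for PID1 and 0.980 for ZNF273. Nearest to FOSL1 were HNRNPL, WDR82P1, MAFG-AS1, CARM1 and GEMIN4, from 0.976 down to 0.963. Among the 9 themselves, the coefficient of FOS was 0.93 with FOSB, 0.94 with JUND and -0.69 with FOSL1, and that of JUN with FOSL2 was 0.97. The 8 points share libraries and depth with each other across genes, and the coefficients are descriptions.

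The authors' FPKM per isoform gave JUN and JUNB 1 transcript each. The transcript ENST00000303562 took between 23.8% and 76.3% of the FOS FPKM in single Mia-PaCa-2 libraries, and ENST00000448083 between 26.3% and 67.0% of that of FOSL1. These shares spread widely between libraries of 1 line, and no comparison was made on them.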

How the data were processed

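RNA was sequenced from 16 libraries, 2 per group. The authors aligned reads to GRCh37 with TopHat2 2.0.4, removed reads with multiple alignments with Picard 1.29, and deposited HTSeq 0.6.1 counts per gene and Cufflinks 2.1.1 FPKM per gene and isoform. The annotation release and strand setting are not given in the sources used here.

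Counts were normalised by TMM after edgeR's filter on low counts (16064, 16909 and 17863 genes kept in Mia-PaCa-2, PANC-1 and both lines) and fitted with limma-voom (R 4.3.3, limma 3.58.1, edgeR 4.0.16) on the 8 libraries of a line, or on all 16 for differences between lines. Interactions and differences in response were called on adjusted p alone. The scripts were tested on simulated data. Alternatives were edgeR's quasi-likelihood test, DESeq2 1.42.0, other scalings, filters, thresholds and libraries, limma-trend on log2(FPKM + 1), a replicate block, and a loess correction of log2 counts for exon GC (span 0.3, GENCODE v44). Same-numbered libraries' deviations from group means correlated from -0.30 to 0.16 in Mia-PaCa-2 (1 of 6 pairs over 0.1) and from -0.57 to 0.33 in PANC-1 (3 of 6), so the numbers were not taken as pairs. The 9 genes and the lists were chosen with earlier results of these data known. Besides the 9, the text names for each list the 2 called genes with the largest rise and fall per comparison, and the 5 genes most like FOS, FOSL1 and JUN. A gene that this rule would name is not reported here. FPKM values were compared as deposited. Motifs were sought in RefSeq promoters on GRCh38.p14, matched by symbol.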

Additional observations from a re-analysis of the deposited data

Results flagged for a closer look

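On the log2 scale, gemcitabine added to genistein had a larger effect in PANC-1 than in Mia-PaCa-2 on 4 of the 9 AP-1 genes. The difference itself was tested by limma-voom on all 16 libraries. The count and the p values may depend on how the genes were chosen. Of all genes 8.80% were called different in either direction. The PANC-1 minus Mia-PaCa-2 difference in log2 fold change was 2.69 for JUN, 2.32 for FOS, 1.87 for FOSL2 and 1.38 for JUND, with adjusted p values of 1.73e-04, 0.00221, 1.63e-05 and 0.0153. The libraries with genistein and with both drugs did not overlap in PANC-1 for any of these 4 genes. In Mia-PaCa-2 the FOS libraries did not overlap either, and the log2 fold changes of FOSL2 (0.08), JUN (0.13) and JUND (0.12) did not pass the test. The FOS values of PANC-1 with genistein alone rest on 13 and 11 counts. With both drugs FOS had 6.55 and 11.4 FPKM in PANC-1 and 11.6 and 12.3 in Mia-PaCa-2. For gemcitabine against control, a description, FOS changed by 2.81 in PANC-1 and 2.24 in Mia-PaCa-2. In the same order JUN changed by 1.71 and 0.23, FOSL2 by 1.94 and 0.24 and JUND by 0.99 and 0.26. With GC correction the 4 differences were 2.88 for JUN, 2.50 for FOS, 2.06 for FOSL2 and 1.32 for JUND. On log2(FPKM + 1) values FOS and JUND did not pass, and the JUND call was lost without some single libraries, as given beside the comparison.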

How the results depend on the processing

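With 2 libraries per group, leaving out 1 rests that group on a lone library, which is assumed to vary like the others. Except where a library was left out, counts of called genes under other settings are given without those over all genes. Nothing is therefore read from these counts about the 9 genes relative to all genes. Of 88 single-gene results with a log2 size of 0.2 or more, or a call, 0 changed sign under the size factors of DESeq2 or under library size alone, although the latter shifted the median of all genes by 0.11 on the log2 scale for gemcitabine against control in both lines and by 0.11 in Mia-PaCa-2 and 0.15 in PANC-1 for gemcitabine added to genistein. The other 29 results were smaller, and 22 of them changed sign somewhere. For genistein against control in Mia-PaCa-2, where 2 of the 9 genes were called, 1 was called with library size alone, without the low-count filter, with all 16 libraries in one model, with the replicate block or at a log2 size of 1, and 0 with limma-trend on log2(FPKM + 1). For genistein added to gemcitabine in Mia-PaCa-2, where 1 was called, 0 were called with edgeR, DESeq2, library size alone, no low-count filter, limma-trend, all 16 libraries, the replicate block or a log2 size of 1, and 2 with GC correction. For gemcitabine added to genistein in Mia-PaCa-2, where 5 were called, 3 were at a log2 size of 1. For gemcitabine against control in PANC-1, 5 genes were past the thresholds and 3 with limma-trend. For genistein against control in PANC-1, where 0 were called, 2 were with DESeq2, with only the libraries compared, with GC correction and with GC correction and the replicate block, and 1 with all 16 libraries. For genistein added to gemcitabine in PANC-1, where 0 were called, 1 was with DESeq2 or all 16 libraries, 3 with GC correction and 2 with GC correction and the block. A crossed pairing of the replicates, chosen after seeing the data and fitted on only the libraries compared, called 2 and 3 genes in Mia-PaCa-2 and PANC-1 for genistein added to gemcitabine. For the line difference in the genistein response, where 0 were called, 2 were with DESeq2 or GC correction and 1 with GC correction and the block, and for that in gemcitabine added to genistein, where 4 were called, 2 were with limma-trend. The replicate block, whose numbers share a label and not a pairing, left 5 of 6 calls for gemcitabine added to genistein in PANC-1. Leaving out 1 library at a time gave 0 to 2 calls for genistein against control (176 to 1117 over all genes) and 0 to 3 for genistein added to gemcitabine (at most 1890) in Mia-PaCa-2, 2 to 4 genes past the thresholds for gemcitabine against control (64 to 1919) and 2 to 6 calls for gemcitabine added to genistein (27 to 1186) in PANC-1, and 0 to 1 for the line difference in the genistein response (0 to 86).

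With GC correction, without and with the block, signs changed for JUND in gemcitabine against control (-0.45 and -0.44) and gemcitabine added to genistein (-0.63 and -0.63) in Mia-PaCa-2, in genistein against control (0.97 and 0.98) and the drug interaction (-0.39 and -0.40) in PANC-1 and in the line difference of the genistein response (0.31 and 0.31), and for FOSL1 in genistein against control in PANC-1 (0.011 and 0.013). With limma-trend they changed for the FOSB interaction in Mia-PaCa-2 (0.17) and for FOS with genistein in PANC-1 (-0.034). With single libraries left out, ranges crossed 0 for JUND (-0.057 to 0.32) and BATF3 (-0.041 to 0.70) in gemcitabine added to genistein and FOSB in the interaction (-0.98 to 0.011) in Mia-PaCa-2, for JUND in genistein against control (-0.18 to 0.020), JUN (-0.091 to 0.48) and JDP2 (-0.0017 to 0.48) in genistein added to gemcitabine and JDP2 in gemcitabine added to genistein (-0.0018 to 0.48) in PANC-1, and for FOSB (-0.060 to 0.98), JUN (-0.29 to 0.10) and JUNB (-0.70 to 0.011) between the untreated lines. The causes of these changes of sign were not tested.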
